A study of Mus musculus with 20 samples.

Results

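Open chromatin around 10 genes of the Notch pathway was examined in ATAC-seq peak lists of mouse epidermal cells. The genes are the receptors Notch1, Notch2 and Notch3, the ligands Jag1, Jag2 and Dll1, the DNA-binding factor Rbpj, the coactivator Maml3 and the target genes Hes1 and Hey1. They were chosen by name, out of 21887 protein-coding genes in the annotation. A peak belonged to a gene when its summit lay in the gene's span or within 50 kb of either end. Peaks of a list that overlap were merged into a region, and regions that overlap between lists were merged into a site. Over the 10 lists, 183 of 101406 sites belonged to the 10 genes.

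Notch signalling passes between cells that touch each other. A Jagged or Delta-like ligand on the sending cell binds a Notch receptor on the receiving cell, proteases then release the receptor's intracellular domain, and that domain joins Rbpj and a Mastermind-like coactivator on DNA to switch on targets such as the repressors Hes1 and Hey1. In mouse skin the pathway is known for driving epidermal cells into differentiation and for its roles in the hair follicle.

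All groups were mice of genotype Lrig1CreER/Rosa-TdTomato, in which CreER made from the Lrig1 gene switches on a red fluorescent protein, so that cells of the Lrig1 lineage and their descendants can be sorted. The sorted cells were Lrig1 GL Sca1+ cells of tail epidermis. The wound course comprised homeostasis, 1 week and 8 weeks after a first wound, and 1 week after a second wound, called the second-wound group below; 1 week and 8 weeks without a wound named mean after the first. PRT4165, a PRC1 inhibitor that blocks ubiquitination of histone H2A, was set against vehicle, and wounding with UVB against UVB alone. Cells cultured from a distal memory region were set against cells cultured from a non-memory control region, both titled 8 weeks after the first wound. The sources used here do not give the age or sex of the mice, the doses, the time between the wounds, or whether animals were pooled. Each of the 10 groups had 2 libraries and 1 deposited peak list made from both. Replicates therefore cannot be compared, and no group difference below was tested.

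The lists held 34644 (8 weeks) to 73340 (UVB) regions, and counts of regions move with that length. The sources used here give no read depth. Of 10 keratinocyte and sorted-lineage markers, 7 to 10 per list had a region reaching to within 1 kb of an end of the gene. Those in every list were Krt5, Krt14, Itga6, Itgb4, Cdh1, Lrig1 and Ly6a, which encodes Sca1. The corresponding numbers were 0 to 1 of 6 for endothelial, 0 to 1 of 5 for T cell, 1 to 2 of 4 for leukocyte, 2 to 3 of 5 for melanocyte and 1 to 3 of 6 for fibroblast markers. Among the leukocyte markers, Spi1 had such a region in every list and Csf1r in both cultures, and Ptprc and Cd207 had none in any list. The melanocyte markers Mitf and Pmel and the fibroblast marker Col1a1 also had one in every list, whereas Tyrp1, Sox10, Pecam1, Cdh5, Cd3e and Lum had none in any. The part of other cell types in the results was not tested. Regions at the Y-linked genes Ddx3y, Uty and Eif2s3y were present in 5 lists (1 week after each wound, wound with UVB, and both cultures) and absent from the other 5. The 10 Notch pathway genes are all autosomal. Comparisons of lists that differ in these regions are named below, and the part of that difference in them was not tested.

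The promoters of the receptors and of Rbpj are shown first because they differ in whether an open region covered them. Sequences are the 250 bases before the annotated start, from RefSeq (GRCm38.p6, the assembly of mm10), written 5′ to 3′ on the strand of the gene. Capitals in the receptor promoters mark the GC box GGGCGG on either strand, the core of the sequence that Sp1-family factors bind. Notch1 lies at chr2:26503823-26504072 on the minus strand, Notch2 at chr3:98013288-98013537 on the plus strand and Notch3 at chr17:32166891-32167140 on the minus strand.
Notch1: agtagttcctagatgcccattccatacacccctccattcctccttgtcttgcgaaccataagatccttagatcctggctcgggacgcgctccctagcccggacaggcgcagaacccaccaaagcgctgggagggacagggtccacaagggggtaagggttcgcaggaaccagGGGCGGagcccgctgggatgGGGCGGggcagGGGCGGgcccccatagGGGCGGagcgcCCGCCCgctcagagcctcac
Notch2: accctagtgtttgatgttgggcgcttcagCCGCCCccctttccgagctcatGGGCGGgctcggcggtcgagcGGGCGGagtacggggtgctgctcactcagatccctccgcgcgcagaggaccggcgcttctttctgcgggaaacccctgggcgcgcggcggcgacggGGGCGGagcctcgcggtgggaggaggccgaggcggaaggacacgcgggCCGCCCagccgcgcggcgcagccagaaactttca
Notch3: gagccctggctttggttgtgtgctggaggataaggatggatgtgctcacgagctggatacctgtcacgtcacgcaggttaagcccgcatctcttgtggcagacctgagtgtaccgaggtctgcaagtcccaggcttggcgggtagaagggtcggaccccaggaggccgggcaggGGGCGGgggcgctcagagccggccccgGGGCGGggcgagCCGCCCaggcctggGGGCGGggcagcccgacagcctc
In the first of 2 Rbpj promoters, at chr5:53590096-53590345 on the plus strand, capitals mark TGGGAA on either strand, the core of the sequence that Rbpj itself binds.
Rbpj: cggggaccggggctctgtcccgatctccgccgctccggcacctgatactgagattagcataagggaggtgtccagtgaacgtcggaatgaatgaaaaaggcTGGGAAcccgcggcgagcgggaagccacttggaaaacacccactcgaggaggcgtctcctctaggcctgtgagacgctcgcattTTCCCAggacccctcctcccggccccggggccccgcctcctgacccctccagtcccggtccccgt

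The receptor promoters were alike in composition. The share of G and C was 66.0% in Notch1, 72.0% in Notch2 and 68.8% in Notch3, and they held 5, 5 and 4 GC boxes and 16, 34 and 17 CpG. The Notch1 and Notch2 starts were covered by a region in all 10 lists. The Notch3 start had no region in any of the 10. Of 4302 promoters in the annotation with a G and C share of 65 to 75%, between 70.6% (8 weeks) and 86.4% (UVB) were covered, so absence at such a promoter was the less common state in every list. The nearest sites to the Notch3 start had their summits 4.55 kb inside the gene, in all 10 lists, and 3.17 kb before the start, in 7 lists.

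The Rbpj promoter held TGGGAA at -149 to -144 and, reversed, at -65 to -60, counted from the start, and a region covered it in every list. At least 1 TGGGAA was found in 3 of the 10 promoters known for 8 of the 10 genes (both Rbpj starts, which overlap and share 1 match, and Maml3), against 21.6% of 32851 promoters of the same length. The longer form GTGGGAA was in none of the 10, against 5.42% of all promoters. TGANTCA, where N is any base, is looser than the AP-1 motif, which has C or G in its middle. It was found in 1, the second Dll1 start, against 6.75%, and the E-box CACGTG in none, against 6.02%. The Dll1 match reads TGATTCA and so is not the AP-1 motif itself. GGGCGG was found in 32.7% of all promoters. A match of letters is a description and does not show binding. Hes1 and Hey1 had no entry in the promoter table.

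At the gene starts, signal and significance ranked differently. The signal value is the authors' own enrichment measure for each peak. Here it is ranked only within a list, as a percentile that gives the share of the list's regions with a lower value, and ranks from lists of different lengths show no change. The region at the Notch1 start had signal values of 5.0, 3.7, 4.9 and 5.9 in homeostasis, at 1 week, at 8 weeks and 1 week after the second wound, then 4.6 with PRT4165 and 4.9 with vehicle, 5.2 with wound and UVB and 5.0 with UVB, and 5.2 in cultured distal and 4.5 in cultured control cells. These low values placed it at a median percentile of 6.3 by signal, but at 42.4 by the authors' −log10 p. Jag1 showed the same split, with a median of 27.2 by signal and 79.2 by −log10 p. The regions at the Rbpj start lay between 17.9 and 37.3 by signal and between 73.2 and 92.1 by −log10 p. The other covered starts also ranked higher by −log10 p than by signal in each list. The medians were 39.3 against 9.86 at Maml3 and 32.0 against 3.99 at Jag2. Such ranks over all promoters are not given.

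By the median over lists, Notch2 had the start with the highest signal rank of the 8 genes with a promoter sequence. It ranked first in each of the 8 uncultured lists. In both cultures the Jag1 start ranked slightly higher than that of Notch2, at percentile 51.8 against 51.1 in distal and 55.3 against 54.5 in control cells. The Notch2 start had signal values of 11.4 in homeostasis, 12.6 at 1 week, 11.3 at 8 weeks and 14.4 after the second wound. Its values were 13.8 with PRT4165, 12.6 with vehicle, 13.1 with wound and UVB, 13.4 with UVB and 9.7 in both cultures. The median percentile was 72.2. Low ranks were found at Maml3 (3.13 to 18.5, all 10 lists), Jag2 (0.664 to 9.5, 8 lists) and the first Dll1 start (0.761 to 6.84, 7 lists). The Jag2 start was without a region at 8 weeks and in cultured distal cells. The first Dll1 start was without one at 8 weeks, 1 week after the second wound and with PRT4165. The second Dll1 start was covered in cultured distal cells only, with a signal value of 4.8.

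**Figure D1:**
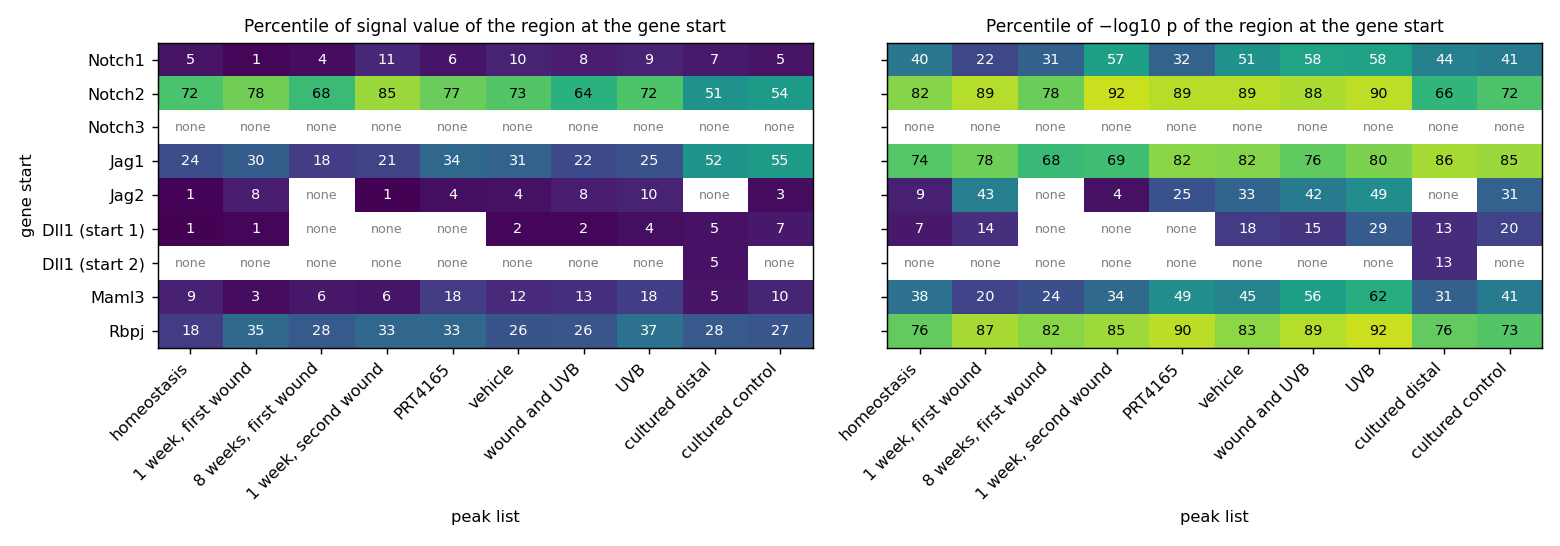
Rank of the region covering each annotated gene start within its peak list, as a percentile of signal value (left) and of −log10 p (right), with gene starts as rows and the 10 peak lists as columns; none means that no region covered the start. Notch3 is empty in all 10 lists, Notch2 is high in both panels, and every covered start ranks higher by −log10 p than by signal value.

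The summed number of regions near the 10 genes was lowest in the shortest list and highest in the 2 longest, but single genes did not always follow the length. Rbpj had 2 regions in every list of the wound course, and Notch3 had 13 in cultured control cells, against 10 in each of the longer vehicle and UVB lists. These are counts of regions, and 1 site can hold several. All 10 genes had at least 1 region in every list. Together they held 74 regions in homeostasis, 100 at 1 week, 68 at 8 weeks and 87 after the second wound, 128 with PRT4165 and 143 with vehicle, 130 with wound and UVB and 143 with UVB, and 80 in cultured distal and 106 in cultured control cells. Per 10000 regions of the list this was 17.5 (cultured distal) to 21.0 (homeostasis). The Wilson 95% intervals of these 2 extreme shares, 0.141 to 0.218% in cultured distal cells and 0.168 to 0.264% in homeostasis, overlap. Intervals here cover counting error only. The regions were mostly of modest rank, with a median percentile of signal between 25.0 (homeostasis) and 38.2 (UVB).

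**Figure D2:**
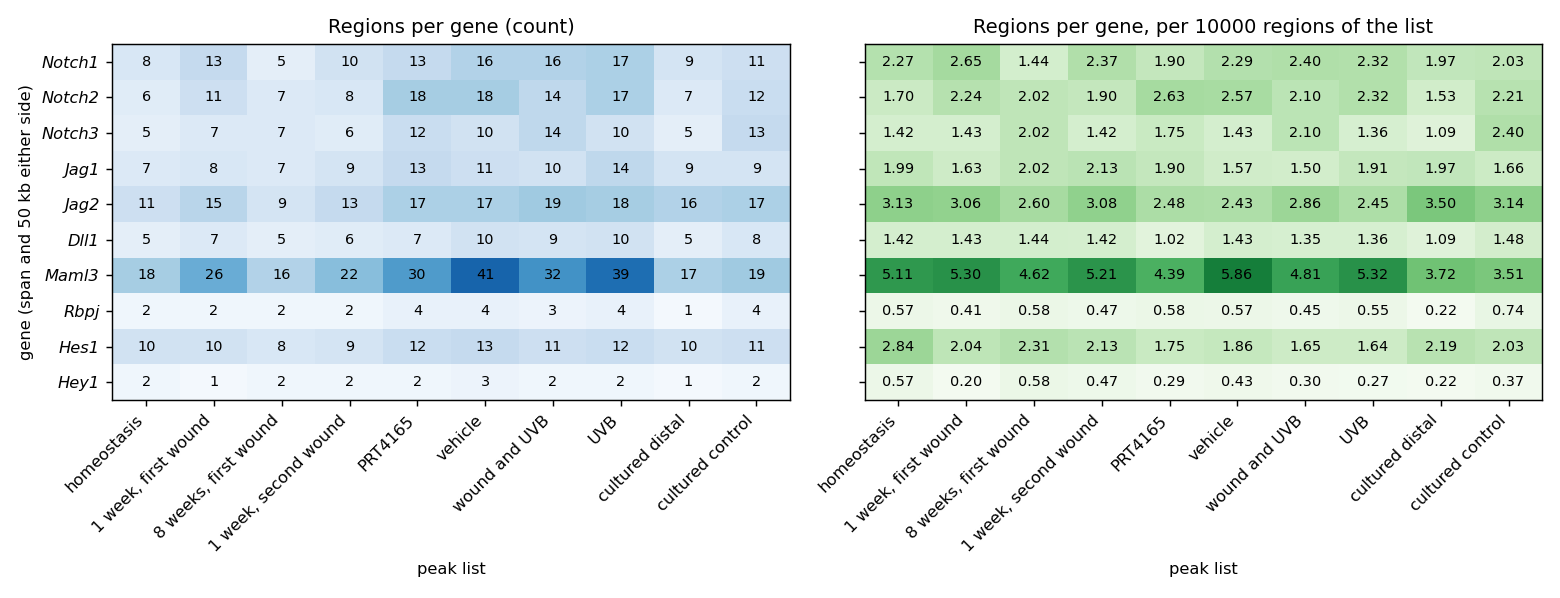
Number of regions assigned to each gene (left) and the same per 10000 regions of the list (right), with genes as rows and the 10 peak lists as columns. Maml3 has the most regions of these genes in every list, from 16 at 8 weeks to 41 with vehicle, and Rbpj and Hey1 have 4 or fewer in each.

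Among the receptors, Notch1, which acts in the differentiating layers of the epidermis, had 8 regions in homeostasis, 13 at 1 week, 5 at 8 weeks and 10 after the second wound, 13 with PRT4165 and 16 with vehicle, 16 with wound and UVB and 17 with UVB, and 9 in cultured distal and 11 in cultured control cells. Its fewest regions were at 8 weeks. Its window spans 145.9 kb and holds 22 sites, of which 3 were in all 10 lists. The site of highest median rank, chr2:26408460-26409610, lies 48.6 kb beyond the far end of the gene. Its signal values were 11.2 in homeostasis, 12.2 at 1 week and 11.2 1 week after the second wound, 12.5 with PRT4165 and 12.7 with vehicle, 19.1 with wound and UVB and 16.3 with UVB, and 10.9 in cultured distal and 11.5 in cultured control cells. At 8 weeks it had no region, the only list of the 10 without it. A pair of sites, chr2:26417886-26418573 and chr2:26531800-26532353, was present in both cultures only. The site chr2:26524555-26525142, 20.9 kb before the start, was present in all 8 lists of uncultured cells and in neither culture.

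Notch2, which like Notch1 is expressed in epidermal cells, had 6 regions in homeostasis, 11 at 1 week, 7 at 8 weeks and 8 after the second wound, 18 with PRT4165 and 18 with vehicle, 14 with wound and UVB and 17 with UVB, and 7 in cultured distal and 12 in cultured control cells. Most of its sites, 18 of 24, lie inside the gene. The site chr3:98080541-98081036, 67.3 kb from the start, had the highest median rank, at percentile 90.9. Its signal values were 7.0 in homeostasis and 8.8 at 1 week, 17.1 with PRT4165 and 14.8 with vehicle, 23.2 with wound and UVB and 19.7 with UVB, and 21.6 in cultured distal and 20.6 in cultured control cells. It was absent at 8 weeks and 1 week after the second wound. By contrast chr3:98098497-98099301, 85.3 kb from the start, was present in all 10 lists, at percentiles of 68.9 to 92.7. The site chr3:98114906-98115500 was found at 8 weeks (8.9), with PRT4165 (16.7) and vehicle (14.3), and with UVB (16.0), and in no other list.

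Notch3, a receptor best known from smooth muscle and also made in keratinocytes, had 5 regions in homeostasis, 7 at 1 week, 7 at 8 weeks and 6 after the second wound, 12 with PRT4165 and 10 with vehicle, 14 with wound and UVB and 10 with UVB, and 5 in cultured distal and 13 in cultured control cells. Of its 14 sites, 2 were in all 10 lists. The site of highest median rank was chr17:32091160-32092304, 28.9 kb beyond the end of the gene. Signal values there were 14.3 in homeostasis, 16.2 at 1 week, 15 at 8 weeks and 19.8 after the second wound, 23.1 with PRT4165 and 21.3 with vehicle, 20.5 with wound and UVB and 20.6 with UVB, and 10.2 in cultured distal and 12.5 in cultured control cells. It ranked at a median percentile of 91.8 although the start of the gene was uncovered. The site chr17:32117615-32118563, 2.92 kb beyond the gene's end, was present in every list except cultured distal cells. The site chr17:32110290-32110936 was absent from homeostasis and from both cultures and present in the other 7 lists, with signal values of 7.9, 8.6 and 10 in the 3 wound lists.

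Among the ligands, Jag1, a Jagged ligand that is itself switched on by Notch in several tissues, had 7 regions in homeostasis, 8 at 1 week, 7 at 8 weeks and 9 after the second wound, 13 with PRT4165 and 11 with vehicle, 10 with wound and UVB and 14 with UVB, and 9 in each culture. Its start was covered in all lists, with signal values of 6.9 in homeostasis, 7.2 at 1 week, 6.7 at 8 weeks and 6.9 after the second wound, 7.7 with PRT4165 and 7.1 with vehicle, 7.4 with wound and UVB and 6.9 with UVB, and 9.8 in each culture. The site chr2:137150790-137151498, 34.6 kb before the start, had signal values of 7.3 in homeostasis, 11 at 1 week and 9.4 1 week after the second wound, 14.2 with PRT4165 and 11.7 with vehicle, 15.9 with wound and UVB and 12.9 with UVB, and 19.3 in cultured distal and 21.8 in cultured control cells. Like the distal Notch1 site, it was missing at 8 weeks only. A pair of sites inside the neighbouring gene Slx4ip, chr2:137044177-137044574 and chr2:137049102-137049770, was present in both cultures only. The first of them had the highest median rank of the Jag1 sites, at percentile 71.1 over these 2 lists. The site nearest to an end of the gene, chr2:137080451-137081349, lay 0.446 kb beyond the far end of Jag1. It was absent in homeostasis and present in the other 9 lists, at a median percentile of 9.48.

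Jag2, a second Jagged ligand, lies among the genes Brf1, Btbd6, Gpr132 and Nudt14, and 7 of its 22 sites lie inside one of them. It had 11 regions in homeostasis, 15 at 1 week, 9 at 8 weeks and 13 after the second wound, 17 with PRT4165 and 17 with vehicle, 19 with wound and UVB and 18 with UVB, and 16 in cultured distal and 17 in cultured control cells. With 7 sites in all 10 lists it had the second most after Maml3. The highest median rank belonged to chr12:112976201-112977355, inside Brf1 and Btbd6, with signal values of 13.4 in homeostasis, 12.3 at 1 week, 12.6 at 8 weeks and 12.7 after the second wound, 15.6 with PRT4165 and 15.1 with vehicle, 18.7 with wound and UVB and 15.5 with UVB, and 11.6 in cultured distal and 13.7 in cultured control cells. The site chr12:112903768-112904584, downstream of the gene, was absent from homeostasis and present in the 3 wound lists with signal values of 12, 8.3 and 8.3. It was also present with PRT4165 (12.4), vehicle (11.7), wound and UVB (9.5) and UVB (9.7), and absent from both cultures. Position cannot tell whether such a site acts on Jag2 or on a neighbour.

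Dll1, the Delta-like ligand of the group, had 5 regions in homeostasis, 7 at 1 week, 5 at 8 weeks and 6 after the second wound, 7 with PRT4165 and 10 with vehicle, 9 with wound and UVB and 10 with UVB, and 5 in cultured distal and 8 in cultured control cells. Its start ranked low, but chr17:15395745-15396845, 19.3 kb before the start and inside Fam120b, ranked at a median percentile of 95.3. Signal values at that site were 13.8 in homeostasis, 18.6 at 1 week, 19.4 at 8 weeks and 17.7 after the second wound, 20.2 with PRT4165 and 20.8 with vehicle, 23.5 with wound and UVB and 21.9 with UVB, and 17.2 in cultured distal and 18.2 in cultured control cells. It was present in all 10 lists. The site chr17:15365559-15366438, 1.49 kb beyond the end of the gene, was absent from homeostasis and 1 week after the second wound. It had signal values of 11.6 at 1 week and 9.3 at 8 weeks.

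Rbpj, through which the Notch receptors act on DNA, had 2 regions in each list of the wound course, 4 with PRT4165 and 4 with vehicle, 3 with wound and UVB and 4 with UVB, and 1 in cultured distal and 4 in cultured control cells. Of its 6 sites 1 was in all 10 lists, chr5:53588878-53591107, which covers both annotated starts. In each list of the wound course both regions lay in this 1 site. The strongest region of the site had signal values of 7.5 in homeostasis, 7.6 at 1 week, 7.6 at 8 weeks and 8.1 after the second wound, 8.6 with PRT4165 and 8.3 with vehicle, 8.8 with wound and UVB and 8.4 with UVB, and 7.3 in cultured distal and 7.7 in cultured control cells. It covered the starts at 1 week, at 8 weeks and in cultured distal cells, and ended before them in the other lists. There the region over the starts had lower values, such as 6.4 in homeostasis, 7.9 after the second wound, 6.6 with vehicle and 6.8 in cultured control cells. The site with its summit nearest to an end of the gene, chr5:53543502-53543806, was in the cultured control list only, with a signal value of 6.2. Few regions were found around Rbpj for so long a window, 201.7 kb. By its highest number of regions in any list, Rbpj lay at percentile 27.0 of all protein-coding genes.

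Maml3, a Mastermind-like coactivator that bridges the Notch complex to histone acetyltransferases, had the most regions: 18 in homeostasis, 26 at 1 week, 16 at 8 weeks and 22 after the second wound, 30 with PRT4165 and 41 with vehicle, 32 with wound and UVB and 39 with UVB, and 17 in cultured distal and 19 in cultured control cells. It is also the longest gene of the 10, at 418.0 kb. Its highest number of regions lay at percentile 99.9 of protein-coding genes, whose median was 7, a count that is not corrected for length. Of its 46 sites, 32 lie inside the gene and 10 were in all lists. The site of highest rank, chr3:52150959-52151667, lies 46.3 kb before the start. Its signal values were 18.2 in homeostasis, 20.9 at 1 week, 20.1 at 8 weeks and 20.3 after the second wound, 24.9 with PRT4165 and 27.3 with vehicle, 28.1 with wound and UVB and 27.1 with UVB, and 19 in cultured distal and 20.4 in cultured control cells. At a median percentile of 98.5 it was the highest-ranking site of all 10 genes.

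Among the targets, Hes1, a repressor that holds cells in an undifferentiated state, had 10 regions in homeostasis, 10 at 1 week, 8 at 8 weeks and 9 after the second wound, 12 with PRT4165 and 13 with vehicle, 11 with wound and UVB and 12 with UVB, and 10 in cultured distal and 11 in cultured control cells. No other protein-coding gene lies in its window. The site chr16:30024101-30025333, 40.5 kb from the gene, had signal values of 15.2 in homeostasis, 14.5 at 1 week, 13.8 at 8 weeks and 14.3 after the second wound, 16.9 with PRT4165 and 16.0 with vehicle, 16.3 with wound and UVB and 16.6 with UVB, and 16.3 in cultured distal and 16.9 in cultured control cells. It ranked at a median percentile of 87.3 and had a region in all 10 lists. The site chr16:30033865-30034752, 31.2 kb from the gene, was also in all 10 lists, with percentiles between 33.0 and 96.0. The site nearest to an end of the gene, 0.126 kb away, ranked low, at a median percentile of 4.96, and was absent 1 week after the second wound.

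Hey1, a repressor of the same family, had 1 to 3 regions per list in 3 sites. Hey1 had no entry in the promoter table, so its start was not assigned to either end of its span. The site with its summit 0.104 kb beyond 1 end of the span, chr3:8666663-8668177, was in all 10 lists. In the wound course its signal values were 8.2 in homeostasis, 6.4 at 1 week, 9.0 at 8 weeks and 7.0 after the second wound. They were 8.2 with PRT4165, 8.9 with vehicle, 10.4 with wound and UVB, 10 with UVB, 12.4 in distal and 12.3 in control cultures. It also lies inside the predicted gene LOC115489673. The site inside Hey1 was absent at 1 week and in cultured distal cells and present in the other 8 lists.

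Across the 10 genes, sites found in 6 or more lists ranked higher at the median than those found in fewer. Of the 183 sites, 38 (20.8%, 95% interval 15.5 to 27.2%) were in all 10 lists, against 18.8% of all sites, and 26 (14.2%) were in a single list, against 17.1%. The median percentile of signal was 17.2 for sites in 1 list, 17.3 for 2 to 5 lists, 38.5 for 6 to 9 lists and 56.8 for all 10. These medians are not given for all sites, so whether the rise is particular to these genes is not known. For the 38 sites in all lists, the summits of the lists lay within 57 bp of each other at the median, and within 200 bp at 29 of them. Of the 183 sites 72 lie inside the gene they belong to, 13 within 1 kb of one of its ends, and 28 inside another protein-coding gene. The annotation used gives gene spans only, so exons, introns and UTRs were not separated.

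**Figure D3:**
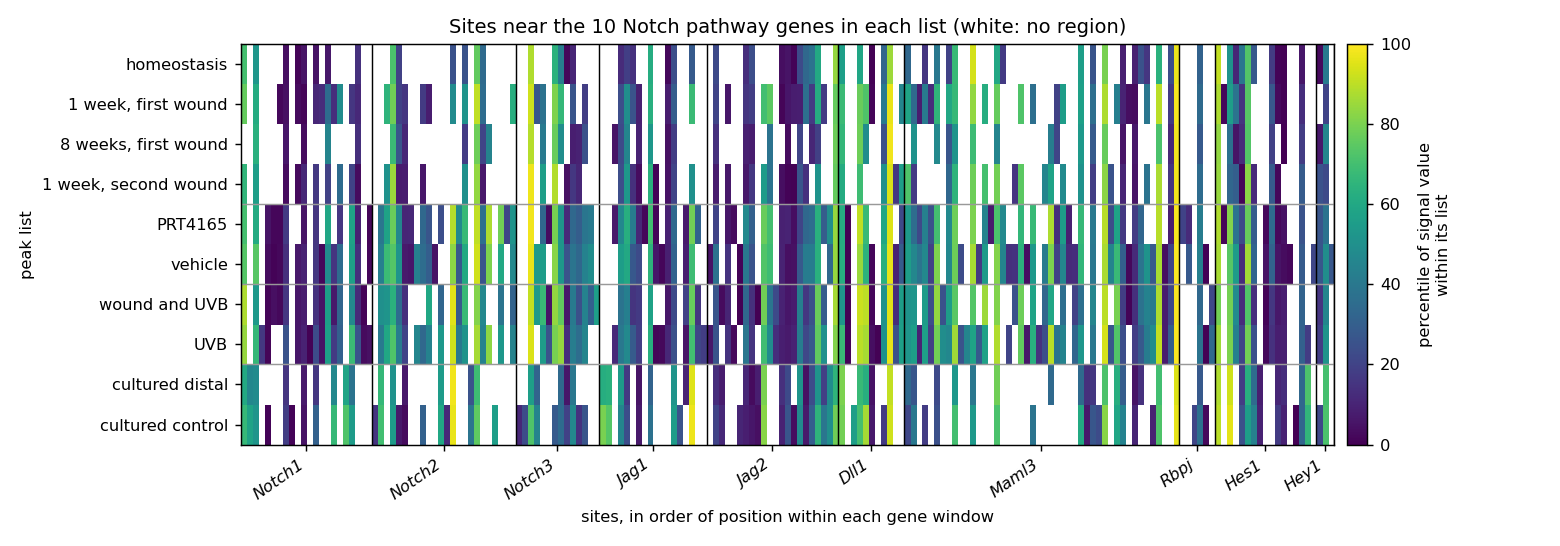
All 183 sites, as columns in order of position within each gene window, in the 10 peak lists, as rows; colour is the percentile of signal value within the list and white means no region. The 38 columns that are filled in every row have a median percentile of 56.8, against 17.2 for the 26 filled in a single row, and blank columns run through the wound course where the longer vehicle and UVB lists are filled.

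The question at 1 week after the first wound was which sites near these genes open or close during repair. Against homeostasis, 31 of the 100 regions at 1 week were gained, meaning that no region of the homeostasis list overlapped them (31.0%, 22.8 to 40.6%), where 33.1% of all regions of the list were gained. Of the 74 regions in homeostasis 5 were lost (6.76%, 2.92 to 14.9%), against 6.04% of all. Both shares of all regions lie inside the intervals of the Notch pathway genes. By gene, 7 of 10 had more regions gained than lost, 2 as many and 1 (Hey1) fewer. Such tallies of genes are not given for all protein-coding genes, here or in the comparisons below. Whether they are particular to these genes is therefore not known. Maml3 had 10 gained and 2 lost, Notch1 and Notch2 5 gained and 0 lost each, Jag2 4 and 0, Notch3 3 and 1, Dll1 2 and 0, and Jag1 1 and 0. Hes1 had 1 and 1, Hey1 0 and 1, and Rbpj 0 and 0. The 1-week list is longer than the homeostasis list and, unlike it, holds the Y-linked regions. With each list limited to the same number of its strongest regions, 45.9% of the homeostasis regions near these genes were lost, against 22.8% of all. In the full lists this was 6.76% against 6.04%. The cut drops the lowest-ranking regions of the longer list and kept 54 of the 100 near these genes at 1 week. Regions near these genes were mostly of modest rank, so the excess cannot be told apart from an effect of the cut.

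At 8 weeks after the first wound the question was what remains long after the wound. Against homeostasis, 12 of 68 regions were gained (17.6%, 10.4 to 28.4%), against 17.9% of all regions of the list, and 18 of 74 were lost (24.3%, 16.0 to 35.2%), against 19.1%. These lists were of nearly the same length. By gene, 2 of 10 had more gained than lost, 4 as many and 4 fewer. Notch1 had 0 gained and 3 of its 8 lost, Maml3 3 gained and 5 lost, Jag2 1 and 3, and Hes1 0 and 2. Notch3 was on the other side with 3 and 1, and Notch2 with 2 and 1.

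Sites that were absent at 8 weeks alone in the wound course were looked at after their values were seen. Present in homeostasis and 1 week after both wounds but absent at 8 weeks were 11 of 183 sites (6.01%, 3.39 to 10.4%), against 3.15% of all sites. The share of all sites lies just below that interval. They belonged to Notch1 (3), Jag2 (3), Jag1 (2), Maml3 (2) and Hes1 (1). The 2 distal sites of Notch1 and Jag1 described above were among them, and so was the Jag2 start. The 8-week list was the shortest of the 10, and the part of its length was not tested. Of all sites present in exactly 9 lists, 28.4% of 5039 were missing from the 8-week list. Near these genes it was 7 of 17 (41.2%). In the opposite direction, 5 of 183 sites were absent in homeostasis and present in all 3 wound lists (2.73%, against 3.28% of all). They were 1 each at Notch2, Notch3, Jag1, Jag2 and Maml3. Each of them also had a region in the vehicle list.

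The response to a repeated wound was compared with the response to the first, both at 1 week. Of 87 regions 1 week after the second wound, 10 were gained (11.5%, 6.36 to 19.9%), against 9.85% of all, and of 100 regions 1 week after the first wound 23 were lost (23.0%, 15.8 to 32.2%), against 23.1%. By gene, 7 of 10 had more lost than gained, 1 as many (Rbpj, 0 and 0) and 2 more gained (Jag1 and Hey1, 1 gained and 0 lost each). Maml3 had 4 gained and 8 lost, Notch1 and Notch2 0 gained and 3 lost each, Notch3 2 and 3, Jag2 0 and 2, and Hes1 and Dll1 1 and 2 each. Both lists hold the Y-linked regions. With the lists limited to the same length, 29.9% of second-wound regions near these genes were gained, against 18.0% of all. That cut kept 74 of the 100 first-wound regions near these genes, so the same limit holds.

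Against homeostasis, 22 of the 87 regions 1 week after the second wound were gained (25.3%, 17.3 to 35.3%), where 27.3% of all were gained, and 9 of 74 were lost (12.2%, 6.53 to 21.5%), where 12.9% of all were lost. This comparison shares its homeostasis list with the comparisons above. Again 7 of 10 genes had more gained than lost, led by Maml3 with 8 gained and 4 lost, then Notch2 with 3 and 1 and Jag2 with 3 and 1. Found 1 week after both wounds, but neither in homeostasis nor at 8 weeks, were 10 of 183 sites (5.46%, against 4.45% of all). A pair of them inside Maml3, chr3:51830664-51831465 and chr3:51899798-51900495, had signal values of 10.3 and 11.7 after the first wound and 11.8 and 12.4 after the second. They were also present in the PRT4165, vehicle, wound-and-UVB and UVB lists and in neither culture. The second-wound list holds the Y-linked regions, which the homeostasis list lacks. At the same length 44.6% of homeostasis regions near these genes were lost, against 22.7% of all. That cut kept 55 of the 87 second-wound regions near these genes, so the same limit holds.

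PRT4165 was compared with vehicle to ask what differs when PRC1 ligase activity is inhibited, an activity these data do not measure. Of 128 regions with PRT4165 12 were gained (9.38%, 5.44 to 15.7%), against 11.4% of all regions of the list, and of 143 regions with vehicle 27 were lost (18.9%, 13.3 to 26.1%), against 13.9%. Maml3 accounted for 11 of the 27, with 1 gained. Without Maml3, a choice made after seeing the data, 15.7% of the vehicle regions were lost. Notch1 and Dll1 had 0 gained and 3 lost each, Notch2 2 and 2, Jag2 2 and 2, Rbpj 1 and 1, Hes1 1 and 2 and Hey1 0 and 1. Jag1 had 3 gained and 1 lost and Notch3 2 and 1, so that 2 of 10 genes had more gained, 3 as many and 5 fewer. The 2 lists were close in length and neither holds the Y-linked regions.

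The Maml3 regions lost with PRT4165 were spread over the gene and its flanks. The strongest, chr3:52115045-52116184, lies 10.6 kb before the start, had a signal value of 9.2 with vehicle and was present in homeostasis, 1 week after each wound and in both UVB lists. It was absent with PRT4165, at 8 weeks and in both cultures. It ranked at percentile 51.4 of the vehicle list, and the lowest of the 11 at 2.29. The 27 regions lost near the 10 genes had a median percentile of 10.1 in that list. The lost share of Maml3, 26.8% of 41 regions (15.7 to 41.9%), has an interval above the 13.9% of all regions, and Maml3 was singled out after its value was seen. The site of highest rank and the site at the start of Maml3 were present with PRT4165 and with vehicle.

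**Figure D4:**
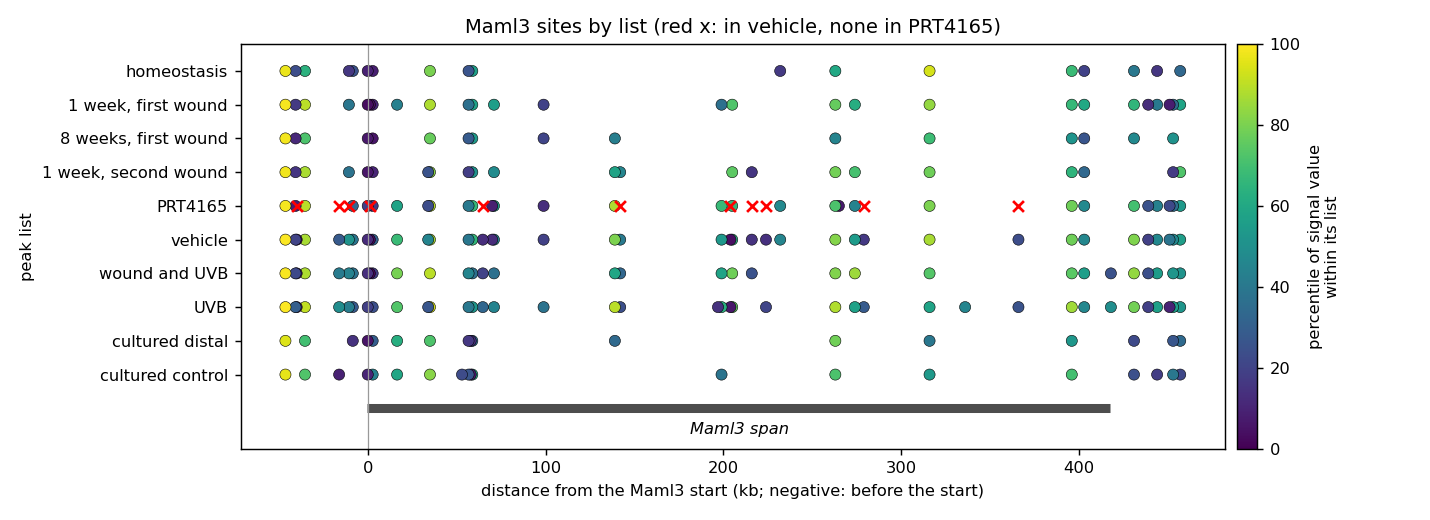
Sites of Maml3 in each peak list (rows) by distance of the summit from the annotated start in kb, with the gene running to the right; point colour is the percentile of signal value within the list, and red crosses in the PRT4165 row mark the 11 sites present with vehicle that have no region with PRT4165. The crosses are scattered along the gene and before its start, while the sites found in all lists keep a point in the PRT4165 row.

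Wounding with UVB was compared with UVB alone. Of 130 regions 10 were gained with wound and UVB (7.69%, 4.23 to 13.6%), against 10% of all, and of 143 regions with UVB 24 were lost (16.8%, 11.5 to 23.8%), against 19.3%. Maml3 again had most, with 2 gained and 9 lost, followed by Jag1 with 0 gained and 4 lost. Notch1 had 2 and 3, Notch2 0 and 3, and Dll1, Hes1 and Rbpj 0 and 1 each. Notch3 was on the other side, with 3 gained and 0 lost, and Jag2 with 3 and 2. By gene, 2 of 10 had more gained, 1 as many (Hey1, 0 and 0) and 7 fewer. The wound-and-UVB list is shorter than the UVB list and holds the Y-linked regions, which the UVB list lacks. At the same length 17.7% of wound-and-UVB regions near these genes were gained, against 15.7% of all. Both UVB lists, but not vehicle, held 8 of 183 sites (4.37%, against 4.73% of all).

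Cultured cells of the distal memory region were compared with cultured cells of the control region, to ask what the memory region keeps outside the tissue. Of 80 regions in distal cells 3 were gained (3.75%, 1.28 to 10.5%), against 7.6% of all, and of 106 regions in control cells 28 were lost (26.4%, 19 to 35.5%), against 22.2%. No gene had more gained than lost, 1 had as many (Jag1, 1 and 1) and 9 had fewer. Notch3 had 0 gained and 7 lost of its 13 regions in control cells (53.8%, 29.1 to 76.8%), an interval that lies above the share of all regions. It was singled out after its value was seen. By site, 5 Notch3 sites were present in control and absent from distal cells, as 1 site can hold several regions. The interval counts regions of 1 site as separate. Notch2 had 0 gained and 5 lost of 12, Maml3 2 and 4, Dll1 0 and 3, Notch1, Jag2 and Rbpj 0 and 2 each, and Hes1 and Hey1 0 and 1 each. The distal list holds fewer regions, 45714 against 54188 in the control list. At the same length 22.5% of regions near these genes were gained, against 15.5% of all, and 17.1% were lost, against 16.0%. Notch3 then had 3 lost in place of 7. That cut kept 76 of the 106 control regions near these genes, so the same limit holds. Both cultures but no other list held 7 of 183 sites (3.83%, against 7.75% of all), and 9 were in all 8 uncultured lists and in neither culture (4.92%, against 5.06%).

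**Figure D5:**
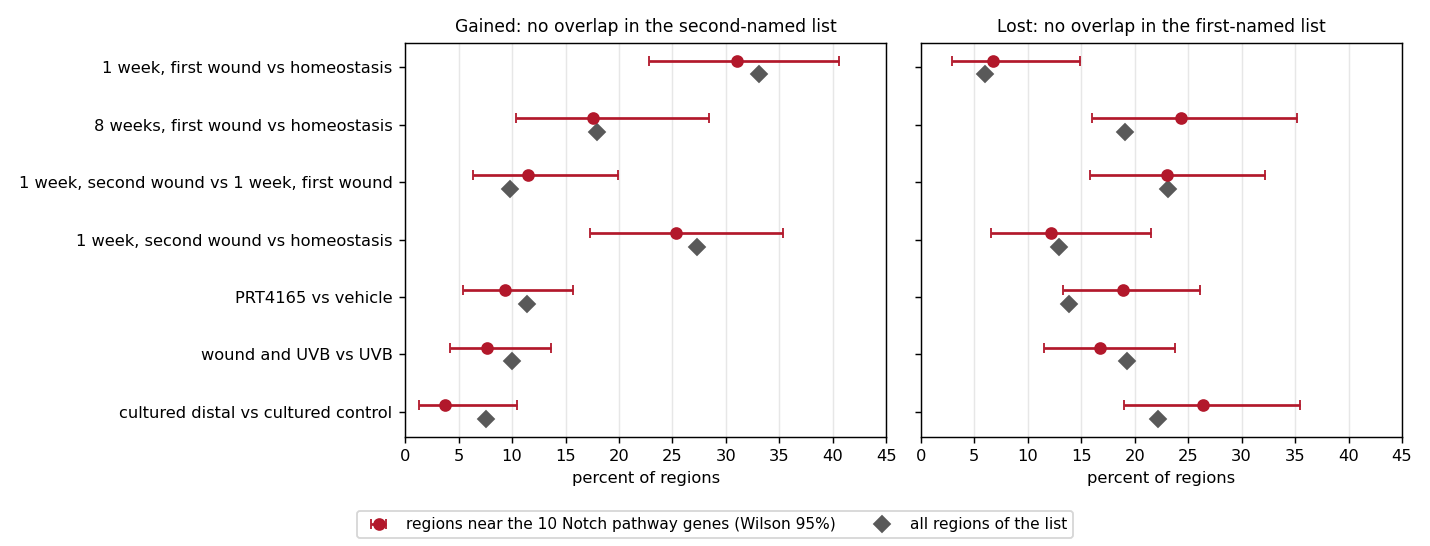
Percent of regions gained (left) and lost (right) in each of the 7 comparisons; red points are regions near the 10 Notch pathway genes with Wilson 95% intervals, which cover counting error only, and grey diamonds are all regions of the same list. All 14 diamonds lie inside the red intervals.

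Gene by gene, 140 shares were set against those of all regions, for 10 genes gained and lost in 7 comparisons. The Wilson 95% interval included the share of all regions for 137 and lay above it for 3. These were the lost regions of Maml3 with PRT4165, those of Notch3 in the cultures, and those of Hey1 at 1 week, where 1 of 2 was lost (9.45 to 90.5%). Over the 7 comparisons, regions gained near the 10 genes had a median percentile of signal of 3.48 to 31.4 in their list. For lost regions it was 10.1 to 25.0.

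Other genes of the pathway were counted the same way over 45 genes, all found, among them further ligands, the proteases that cut the receptors, the corepressor Spen and further Hes and Hey genes. At 1 week against homeostasis, 30.6% of their regions were gained and 5.06% lost, against 33.1% and 6.04% of all regions, and 33 genes had more gained than lost and 6 fewer, with Maml2, a second Mastermind-like coactivator, at 9 gained and 0 lost. At 8 weeks 12.7% were gained and 16.3% lost, against 17.9% and 19.1% of all, 8 genes having more gained and 21 fewer. The second wound against the first gave 9.76% gained and 23.4% lost, where all regions gave 9.85% and 23.1%, with 7 genes having more gained and 29 fewer. Set against homeostasis it gave 24.2% and 12.1%, where all regions gave 27.3% and 12.9%, with 26 and 7 genes. PRT4165 against vehicle gave 10.3% gained and 15.1% lost, where all regions gave 11.4% and 13.9%, with 11 genes having more gained and 18 fewer, and the repressor gene Hes3 had 1 gained and 6 lost. Wound with UVB against UVB gave 8.70% and 15.1%, where all regions gave 10% and 19.3%, with 6 and 23 genes, and Fbxw7, whose product marks the Notch intracellular domain for destruction, had 2 gained and 7 lost. Distal against control cultures gave 3.21% and 19%, where all regions gave 7.6% and 22.2%, with 2 and 33 genes, and Numb, an inhibitor of Notch, had 0 gained and 5 lost. In all 7 comparisons the side with more genes was the same for the 45 genes as for the 10, and it was the side of the longer list. Without the same tally over all protein-coding genes, this cannot set the pathway apart from other genes.

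For each gene, the protein-coding gene whose regions per 10000 varied most like its own over the 10 lists was found by Pearson's r, as a description without a test. It was Kat2a for Notch1 (0.96), Serpinb3b for Notch2 (0.92), Sfxn1 for Notch3 (0.84), Gm21976 for Jag1 (0.92) and Ciao2a for Jag2 (0.96). For Dll1 it was Gpx4 (0.86), for Maml3 Umps (0.95), for Rbpj Vamp3 (0.93), for Hes1 Snap23 (0.97) and for Hey1 Mcfd2 (0.95). Each is the best of 13583 to 14277 genes over 10 lists whose lengths are shared by all genes.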

How the data were processed

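The sources give mm10 as the build, per the submitters' processing notes, and Tn5 cutting with Nextera XT indexing of sorted cells, per the labels' protocols. The aligner, the peak caller, any Tn5 shift, the filters and the read depth were not given in the sources used here. Each of 10 groups has 1 list that the authors made from both of its libraries and, by its name, limited to peaks reproducible between them. Per peak the authors deposited a signal value, a −log10 p, a score (at least 540 in every list) and a summit. What 1 unit of the signal value stands for is not given.

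Peaks of chromosomes 1 to 19, X and Y that overlap within a list were merged, and the strongest gave the region its signal and summit. A region without overlap of at least 1 bp in the other list counted as gained or lost. Gene spans came from the RefSeq table of GRCm38.p6, the assembly of mm10, and promoters from the matching RefSeq table. Counts were repeated with bedtools 2.31.1 (14 of 14 equal) and the code was tested on simulated data. Python 3.11.15, numpy 2.4.6, pandas 2.3.3 and matplotlib 3.10.9 were used. Intervals are Wilson 95% intervals.

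The text describes, for each gene, the site of highest median rank and that nearest to a gene end (in most genes the region at the start), and some of the sites chosen by their pattern over lists. Of the other pathway genes it names some of those with the most gained or lost regions in a comparison. One gene that this rule picks is not reported here. The genes, gene lists and patterns were chosen with earlier results of these data known. Alternatives were an overlap of 50%, the strongest 50% of each list, equal length, vehicle as the control, narrower windows, summits joined within 150 bp and, added after seeing the data, leaving out Maml3.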

Additional observations from a re-analysis of the deposited data

How the results depend on the processing

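With an overlap of 50% of both regions and without Maml3, the 14 shares of gained and lost regions stayed inside their Wilson intervals. Inside its interval, the share lost at 1 week, 6.76%, still was 13.5% with the overlap of 50%, against 11.4% of all regions. The share gained in the cultures, 3.75%, was 7.5% with that overlap, against 11.5% of all. It was 1.59% without Maml3, against 7.6%, and 6.25% with the strongest 50% of each list, against 4.69%. Limiting the lists to equal length moved 6 of the 14 out of their intervals. At 1 week against homeostasis the lost share was 45.9%, against 22.8% of all. For the second wound against homeostasis it was 44.6%, against 22.7%. The gained share was 29.9% for the second against the first wound, against 18.0% of all, and 17.7% for wound with UVB, against 15.7%. In the cultures 22.5% were gained and 17.1% lost, against 15.5% and 16.0%. Each cut drops the lowest-ranking regions of the longer list, and regions near these genes were mostly of modest rank. These shares therefore cannot be read as a difference at these genes. With the strongest 50% of each list, 0 of 22 were lost at 1 week (0%, against 7.97% of all). At 8 weeks 1 of 19 was gained (5.26%, against 18.4%). After the second wound 1 of 22 homeostasis regions was lost (4.55%, against 14.3%). With vehicle as the control, 3.0% were gained and 31.5% lost at 1 week, against 4.97% and 33.2% of all regions. At 8 weeks the shares were 2.94% and 53.8%, against 1.28% and 51.3%. After the second wound they were 0% and 39.2%, against 4.0% and 42.4%. With the gene span only, 26.3% were lost with wound and UVB against UVB, outside the interval, where 19.3% of all were lost. Inside their intervals, 19.4% were then gained for the second against the first wound, against 9.85% of all. With PRT4165 6.0% were gained, against 11.4%. The cause was not tested, apart from the number of regions, which each limit lowers by construction. The sites in all 10 lists, 38 in the window of 50 kb, were 13 with the strongest 50%, 18 with the gene span only and 21 with a window of 10 kb. Of 140 counts per gene, 128 stayed within 1.5 times with the overlap of 50% and 71 at equal length.

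No paired analysis was possible because each group has 1 list made from both libraries, and no list holds values per library. For the same reason no library was left out in turn. The sources used here give no read depth, so what a list of these reads misses is unknown.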

Other observations

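The window of 50 kb has an arbitrary edge. Sites 40 to 50 kb from a gene numbered 21, of which 5 were in all 10 lists, with a median of their highest percentile of signal of 29.7. Just outside, at 50 to 60 kb, lay 19 sites, of which 2 were in all 10 lists, with a median of 43.8.

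Present with vehicle and absent with PRT4165 were 26 of 183 sites (14.2%, against 9.19% of all sites), and present with PRT4165 and absent with vehicle 11 (6.01%, against 7.40%). Of the 17 sites present in exactly 9 lists, 7 were missing at 8 weeks (41.2%, against 28.4% of 5039 such sites genome-wide). Another 4 were missing after the second wound (23.5%, against 12.3%). In homeostasis 3 were missing (17.6%, against 23.3%), and in cultured distal cells 3 (17.6%, against 26.8%).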
